A study of Homo sapiens with 15 samples.

Results

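Transcripts of 36 genes that make nucleotide sugars or carry them into the Golgi were followed in MDA-MB-231 spheroids exposed to increasing doses of ZJ-101. The genes were picked by symbol, with earlier results of these data known, out of 59608 gene symbols in the expression table. They comprised 23 enzymes of nucleotide sugar and sulfate donor synthesis and 13 transporters of the SLC35 family. A mean normalised count of at least 10 over the 15 libraries was reached by 15233 symbols, and all 36 members were among them. MDA-MB-231 is an established human breast cancer cell line with a mesenchymal phenotype, and ZJ-101 is a shortened synthetic relative of superstolide A, a marine macrolide. Spheroids formed for 72 h in ultra-low attachment 96-well plates and were then exposed for 24 h to 0.1% DMSO (vehicle) or to ZJ-101 at 0.5, 5, 50 or 500 nM. Each group held 3 libraries, and each library was the pooled spheroids of a 96-well plate. Whether the plates came from separate cell batches is not given in the sources used here, so p-values measure only the spread between plates.

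Sugars are joined to proteins and lipids from activated donors, in which a nucleotide is linked to the sugar. Most of these donors are made in the cytosol, and CMP-sialic acid in the nucleus, whereas most glycosyltransferases and sulfotransferases face the lumen of the endoplasmic reticulum (ER) or Golgi. SLC35 proteins bridge the gap by carrying donors across the membrane in exchange for the spent nucleotide. The hexosamine pathway supplies UDP-GlcNAc for N-glycans, glycosaminoglycans and the O-GlcNAc mark on cytosolic proteins, UDP-glucuronate and UDP-xylose feed proteoglycan chains, GDP-mannose and GDP-fucose feed N-glycans and fucosylation, and PAPS is the sulfate donor.

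The libraries held 7773325 to 10065633 reads in genes (median 9108870). Transcripts that define the line (VIM, CD44, AXL, CAV1, MSN) were abundant in the spheroids, and of the luminal breast markers ESR1, PGR and FOXA1 were at or near 0, CDH1 was low and GATA3 had a mean of 109 normalised counts. In 3 libraries, 0.5 nM replicate 2, 5 nM replicate 2 and 500 nM replicate 1, the summed normalised count of 14 fibroblast markers was 4408 to 5891, against 783 to 1912 in the 12 others. DCN and POSTN were at 0 in all DMSO and 50 nM libraries and at 40.0 to 51.4 and 52.9 to 94.0 in these 3. The other libraries at 500 nM held some too, with DCN at 4.72 to 6.88 and POSTN at 2.29 to 3.78. COL3A1 was at 20.8 to 22.9 in them, against 0 to 2.01 in DMSO. In the other libraries at 0.5 and 5 nM DCN reached 5.87 and 4.29. Leaving out the 3 libraries thus does not remove all such transcripts. The fibroblast sum was 1641 to 1804 in DMSO, 783 to 839 at 50 nM, and 835 and 951 in the other libraries at 500 nM. In DMSO and at 50 nM this sum held no DCN or POSTN, and COL1A1 was at 138 to 140 and 83.7 to 93.9. Of 6 markers of blood and endothelial cells, CD3E and HBB were at 0 in all libraries, and CDH5 and PTPRC had means of 0.19 and 1.08. The sum of the 6, mainly CD14 and PECAM1, was 239.6 to 318 in DMSO, 184 to 211 at 50 nM and 140.4 to 188 at 500 nM. Every library at 50 and 500 nM was thus below every DMSO library for this sum, and the same held for the fibroblast sum except in 500 nM replicate 1. The part of these transcripts in the results was not tested, and the main counts are also given without the 3 libraries. The 3 libraries differed from the other replicates of their group by a median over the 36 members of -0.0027, -0.035 and -0.0040 on the log2 scale. Single members differed by -0.36 to 0.41, -0.49 to 0.25 and -0.53 to 0.27. In bulk RNA, fewer cells of a type and less RNA per cell cannot be told apart. Which cells the transcripts of either sum came from was not tested.

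The genes of nucleotide sugar supply shifted mostly upward, and from 50 nM upward the shift reached more than a few of them. The most affected were GFPT2, which fell, and UXS1, SLC35B1, SLC35B2 and SLC35D2, which rose. A gene is called where the adjusted p is under 0.05 in a limma fit on log2(normalised count + 1) over all 15233 genes, and log2 fold changes are on that scale, ± SE. All doses share the DMSO libraries. At 0.5 nM no member was called by limma, edgeR or DESeq2, 4 had an unadjusted p under 0.05 by limma, and 0.0722% of all genes were called in either direction. At 5 nM, 2 members were higher (UAP1 and UXS1) and none was lower, while 3.63% of all genes were higher and 3.28% lower. At 50 nM, 13 of 36 members were higher (36.1%) and 1 was lower, against 10.9% and 9.66% of all genes. At 500 nM, 17 were higher (47.2%) and 2 were lower, against 16.2% higher and 16.2% lower in the whole table. The median log2 fold change of the members was 0.15 at 50 nM and 0.16 at 500 nM, and that of all genes was -0.0045 and -0.00023. Without the 3 libraries with fibroblast transcripts, 3 members were called at 5 nM, 15 at 50 nM and 18 at 500 nM. The 5 nM count was 1 without DMSO replicate 3, 5 nM replicate 1 or 5 nM replicate 3, and 3 without 5 nM replicate 2.

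The plot of all members by library shows the individual plates behind these counts. All 3 libraries at 500 nM lay above all 3 DMSO libraries for 19 of 36 members and below them for 3, while this held for 21.0% and 20.4% of all genes. A difference among the 5 groups was called by limma's F-test for 21 members (39.0% of all genes), and 15 members, 10 enzymes and 5 transporters, were called at no dose.

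**Figure D1:**
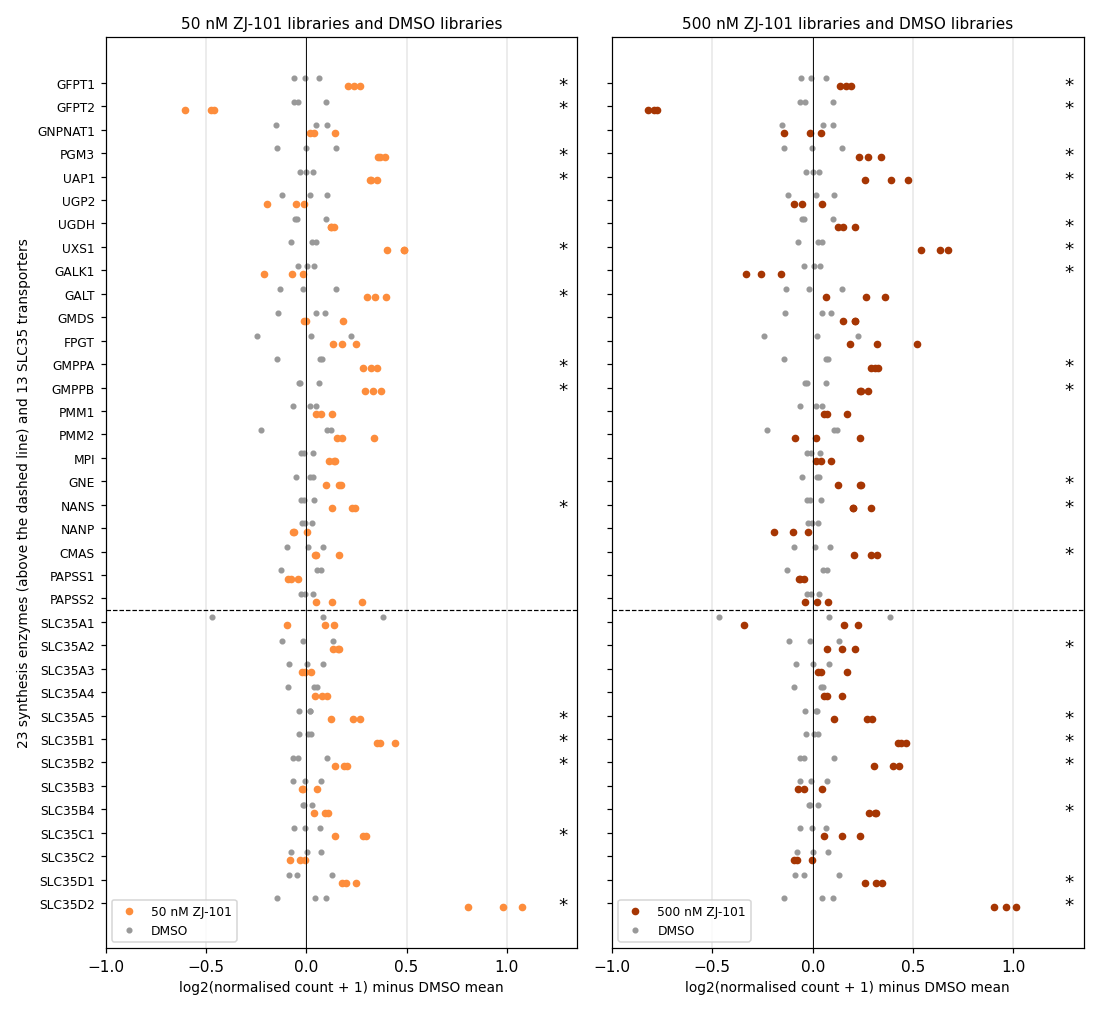
Difference of each library from the DMSO mean, log2(normalised count + 1), for the 36 members at 50 nM (left) and 500 nM (right), with the DMSO libraries in grey and a star where limma's adjusted p against DMSO is under 0.05. Most starred genes lie to the right of 0, GFPT2 lies farthest to the left, and SLC35D2 farthest to the right.

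The hexosamine branch held both the strongest fall and a group of rising genes. GFPT1 and GFPT2 encode the paralogous enzymes that start the pathway by converting fructose 6-phosphate to glucosamine 6-phosphate, and they moved in opposite directions. GFPT2 (chr5:180300698-180353336) had normalised counts of 564, 631 and 573 in DMSO, 611, 599.8 and 636 at 0.5 nM and 603, 617 and 544 at 5 nM. They were 428, 387 and 423 at 50 nM and 340.2, 332 and 343 at 500 nM. All libraries at 50 and 500 nM thus lay below all the others, and those at 500 nM below those at 50 nM. The log2 fold change was -0.51 ± 0.06, adjusted p = 3.1e-11 at 50 nM and -0.80 ± 0.06, adjusted p = 4.1e-21 at 500 nM, a level 1.74 times lower than in DMSO. The library at 500 nM with fibroblast transcripts did not stand apart, at 340.2 beside 332 and 343. GFPT1 (chr2:69319780-69387250) had counts of 889.7, 970.1 and 922 in DMSO, 1069, 1115 and 1094 at 50 nM and 1041, 1019 and 1059.6 at 500 nM, with the 2 lower doses at 938 to 983. It was 1.18-fold higher at 50 nM (log2 fold change 0.24 ± 0.05, adjusted p = 1.8e-05) and 1.12-fold higher at 500 nM (log2 fold change 0.17 ± 0.05, adjusted p = 0.0022), and in both cases the groups did not overlap.

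Coordinates are those of GENCODE release 44 (GRCh38). Per kilobase of the reference (MANE Select) transcript, GFPT2 was the more abundant of the pair in DMSO, with 194 ± 12.1 normalised counts per kb (SD, n = 3) against 107 ± 4.67 for GFPT1. At 500 nM the values were 112 ± 1.77 and 120.0 ± 2.33. The sum of both per kb was 301 ± 16.6 in DMSO and 232 ± 4.08 at 500 nM (SD, n = 3), with ranges of 289 to 320.1 and 227 to 235 that did not overlap. These values rest on transcript lengths of 8665 bases for GFPT1 and 3034 for GFPT2, and which transcripts were expressed was not examined. Undivided by length, GFPT1 had the higher mean in DMSO, 927 against 589 for GFPT2. The undivided sum was 1517 ± 76.2 in DMSO, 1505.5 ± 10.5 at 50 nM and 1378 ± 25.5 at 500 nM (SD, n = 3). No test was run on either sum.

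Downstream of the entry step, PGM3 and UAP1 rose and GNPNAT1 did not pass the test. PGM3 (chr6:83147324-83193936), which moves the phosphate of GlcNAc 6-phosphate, had counts of 468, 573 and 516 in DMSO, 668, 662 and 680.2 at 50 nM and 626, 606 and 656 at 500 nM. The increase was 1.29-fold at 50 nM (log2 fold change 0.37 ± 0.06, adjusted p = 4.9e-07) and 1.22-fold at 500 nM (log2 fold change 0.28 ± 0.06, adjusted p = 8.1e-05), with no overlap with DMSO. DOP1A covers 7.03% of PGM3 exon bases on the opposite strand. UAP1 (chr1:162561722-162601240), which forms UDP-GlcNAc, was the earliest to respond in this branch, with 429, 439 and 449 in DMSO, 511, 519 and 539 at 5 nM. Its counts were 550.1, 562 and 546 at 50 nM and 576, 610.2 and 526 at 500 nM. It was called at 5 nM (log2 fold change 0.25 ± 0.06, adjusted p = 0.0032), at 50 nM (log2 fold change 0.33 ± 0.06, adjusted p = 8.2e-06) and at 500 nM (log2 fold change 0.38 ± 0.06, adjusted p = 2.1e-07), with no overlap with DMSO at any of the 3 doses. GNPNAT1, which acetylates glucosamine 6-phosphate, ranged from 417 to 515 over all libraries, and its log2 fold change at 500 nM was -0.04 (95% interval -0.17 to 0.09). On the opposite strand another annotated gene covers 35.6% of GNPNAT1 exon bases, and the strand setting of the counting is not given.

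Because several of these genes rose, stretches of their promoters are shown for reference. RefSeq start sites (GRCh38.p14) were found for 34 of 36 members, giving 50 promoters, and the 250 bases before each were searched on both strands for TGACGTGG (the UPRE bound by XBP1 and ATF6), CCAAT and CCACG with 9 bases between them (the ERSE), ATTGG and CCACG with 1 base between them (the ERSE-II), TGATG and AA with 1 base between them (the CARE bound by ATF4) and the core ACGTG, which the UPRE contains. The UPRE was found in 1 member promoter, that of NANS, and in 0.676% of the promoters of tested genes. The ERSE, ERSE-II and CARE were in no member promoter, and in 0.113%, 0.0928% and 1.62% of those of tested genes. The core ACGTG was in 16 of 50 member promoters (32%) and in 22.1% of those of tested genes. Counted per gene, 16 of the 34 members had it in a promoter, among them 8 of the 17 called higher at 500 nM. The share per gene among all tested genes was not computed. A match describes letters in this window only. The cores of the 3 rising hexosamine genes, chosen after their values were seen, lay in these stretches, 5′ to 3′ along the gene with the core (or its reverse complement) in capitals.
GFPT1, chr2:69387387-69387421, minus strand: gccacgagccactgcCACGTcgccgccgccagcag
PGM3, chr6:83193266-83193287, minus strand: gaagccacgcagggcCACGTct
UAP1, chr1:162561535-162561569, plus strand: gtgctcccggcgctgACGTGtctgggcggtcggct

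UXS1 had the largest rise among the synthesis enzymes at 500 nM. The enzyme makes UDP-xylose, the sugar on which heparan and chondroitin sulfate chains are started, by decarboxylating UDP-glucuronate. UXS1 (chr2:106093308-106194301) had normalised counts of 737, 727 and 677 in DMSO, 689, 739 and 723 at 0.5 nM and 794, 753 and 858 at 5 nM. They were 1001, 943 and 999 at 50 nM and 1039, 1137 and 1107 at 500 nM. From 5 nM upward every library lay above every DMSO library. The log2 fold change was 0.17 ± 0.05, adjusted p = 0.028 at 5 nM, 0.46 ± 0.05, adjusted p = 6.4e-13 at 50 nM and 0.62 ± 0.05, adjusted p = 8.8e-20 at 500 nM, the last a 1.53-fold increase. The call at 5 nM was lost with DESeq2 (adjusted p = 0.071), without a filter on low values (0.0566) and in a fit to the compared groups only (0.0701). It was also lost on leaving out DMSO replicate 3 (0.203, and 0.236 with edgeR), 5 nM replicate 1 (0.0601) or 5 nM replicate 3 (0.256). The calls at 50 and 500 nM held in all 25 alternatives.

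The other genes of the UDP-glucose and galactose branch had smaller or less certain differences. UGDH (chr4:39498755-39528311), which oxidises UDP-glucose to UDP-glucuronate and so supplies the UXS1 substrate, had 482, 533 and 479 in DMSO and 576, 542 and 553 at 500 nM, a 1.12-fold difference (log2 fold change 0.16 ± 0.06, adjusted p = 0.028). UGDH-AS1 covers 12.7% of its exon bases on the opposite strand. UGDH was not called with DESeq2 (adjusted p = 0.073) or without a filter on low values (0.0757). Nor was it called on leaving out DMSO replicate 1 (0.108), DMSO replicate 3 (0.129, and 0.149 with edgeR), 500 nM replicate 1 (0.121), 500 nM replicate 3 (0.0504) or the 3 libraries with fibroblast transcripts (0.118). GALK1 (chr17:75751594-75765236), the galactokinase that starts galactose salvage, was lower at 500 nM, with 247, 264 and 234 against 303, 296 and 286 in DMSO (log2 fold change -0.25 ± 0.08, adjusted p = 0.009). The groups did not overlap, and the call was lost without 500 nM replicate 3 (adjusted p = 0.066).

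GALT (chr9:34638133-34651035), the uridylyltransferase that follows GALK1, was called at 50 nM alone, with 149, 143 and 139 against 111, 125 and 102 in DMSO (log2 fold change 0.35 ± 0.12, adjusted p = 0.027), and had 118, 145 and 135 at 500 nM (log2 fold change 0.23 ± 0.12, adjusted p = 0.143). The DMSO and treated libraries did not overlap at 50 nM and overlapped at 500 nM. The 50 nM call was lost with DESeq2 (adjusted p = 0.074) and without a filter on low values (0.0626). It was also lost without DMSO replicate 1 (0.068), DMSO replicate 3 (0.15, and 0.136 with edgeR), 50 nM replicate 1 (0.1) or 50 nM replicate 2 (0.062). Another annotated gene covers 39.7% of GALT exon bases on the same strand, and reads there cannot be assigned with certainty. UGP2, which makes UDP-glucose itself, stayed between 613 and 755 in all libraries, with a log2 fold change of -0.03 (95% interval -0.14 to 0.08) at 500 nM.

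In the GDP-mannose and GDP-fucose branch the 2 subunits of the pyrophosphorylase rose and the other 5 genes did not pass the test at 50 or 500 nM (10.9% and 16.2% of all genes were higher at these doses). GMPPB (chr3:49716844-49723973), the catalytic subunit that makes GDP-mannose, had 766, 716 and 713 in DMSO, 622 to 805 at the 2 lower doses, 895, 921 and 948 at 50 nM and 884, 863 and 862 at 500 nM. GMPPA (chr2:219498865-219513898), its regulatory partner, had 360.5, 309 and 358 in DMSO, 436, 427 and 415 at 50 nM and 418, 423 and 429 at 500 nM. All libraries at 50 and 500 nM were above all DMSO libraries for both genes. GMPPB was 1.26-fold higher at 50 nM (log2 fold change 0.33 ± 0.05, adjusted p = 2.6e-07) and 1.19-fold at 500 nM (log2 fold change 0.25 ± 0.05, adjusted p = 6.1e-05). GMPPA was 1.25-fold higher at 50 nM (log2 fold change 0.32 ± 0.07, adjusted p = 0.00015) and 1.24-fold at 500 nM (log2 fold change 0.31 ± 0.07, adjusted p = 0.00013). GMPPB shares 42.6% of its exon bases with AMIGO3 on the same strand, and reads there cannot be assigned to a gene with certainty.

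The remaining members of the branch had positive point estimates at 500 nM without a call. GMDS, which commits GDP-mannose to GDP-fucose, had a log2 fold change of 0.19 (95% interval 0.02 to 0.36), and FPGT, which salvages fucose into GDP-fucose, 0.34 (95% interval 0.04 to 0.65) on a DMSO mean of only 63.9. The values were 0.10 (95% interval -0.05 to 0.25) for PMM1, 0.05 (95% interval -0.15 to 0.26) for PMM2 and 0.05 (95% interval -0.07 to 0.17) for MPI. PMM1 and PMM2 are phosphomannomutases, and MPI is the isomerase that links fructose 6-phosphate to mannose 6-phosphate. The GMPPA estimate of 0.31 lay within the unadjusted intervals of GMDS and FPGT and above those of PMM1, PMM2 and MPI. Exons on the opposite strand cover 24.5% of MPI and 13.7% of PMM2 exon bases.

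In the sialic acid branch 3 of 4 enzymes were higher at 500 nM by 1.15 to 1.21-fold, where 16.2% of all genes were higher. GNE (chr9:36214441-36277042), the bifunctional entry enzyme, had 562, 567 and 534 in DMSO and 653, 656 and 605 at 500 nM (log2 fold change 0.20 ± 0.06, adjusted p = 0.0026). Its libraries lay above DMSO at the lower doses too, without a call. The means there were 608 at 0.5 nM, 614 at 5 nM and 614 at 50 nM, against 555 in DMSO. The slope of GNE over the treated libraries was 0.02 per 10-fold dose (limma, adjusted p = 0.455). NANS (chr9:98056732-98083077), which forms sialic acid 9-phosphate, had 537, 518 and 512 in DMSO, 572, 611 and 618 at 50 nM and 638, 599.8 and 601 at 500 nM (log2 fold change 0.23 ± 0.06, adjusted p = 0.0011). CMAS (chr12:22046218-22065674), which makes CMP-sialic acid, had 329, 354 and 373 in DMSO, 364, 362 and 393 at 50 nM and 439, 405 and 430.0 at 500 nM (log2 fold change 0.27 ± 0.07, adjusted p = 0.0012). For all 3 the libraries at 500 nM lay above those in DMSO, and the calls held in all 25 alternatives. NANS was also called at 50 nM (log2 fold change 0.20 ± 0.06, adjusted p = 0.0082), a call lost without 50 nM replicate 3 (adjusted p = 0.0518). NANP, the phosphatase of the third step, was not called, with 136, 128 and 143 at 500 nM against 144, 145 and 149 in DMSO and a log2 fold change of -0.11 (95% interval -0.32 to 0.11). TRIM14 covers 8.56% of NANS exon bases on the opposite strand.

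The NANS promoter is shown as the only one among the members with a full UPRE, which is in capitals and lies 41 to 34 bases before the start site on the strand of the gene.
NANS, chr9:98056482-98056731, plus strand: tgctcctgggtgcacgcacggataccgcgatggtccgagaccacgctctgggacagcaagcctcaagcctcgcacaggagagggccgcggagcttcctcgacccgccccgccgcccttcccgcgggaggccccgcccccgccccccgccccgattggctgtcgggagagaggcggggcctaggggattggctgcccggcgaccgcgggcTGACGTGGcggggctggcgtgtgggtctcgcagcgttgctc

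Among the transporters, SLC35B2 was the most abundant, and it rose at 50 nM and again at 500 nM. It carries PAPS, the sulfate donor, into the Golgi. SLC35B2 (chr6:44254096-44257890) had normalised counts of 2239, 1989.8 and 2022 in DMSO, 2014, 2054 and 2039 at 0.5 nM and 2113, 2048 and 2147 at 5 nM. They were 2302, 2398 and 2372 at 50 nM and 2576, 2803 and 2748 at 500 nM. The lowest library at 50 nM was above the highest in DMSO, and all 500 nM libraries were above all 50 nM libraries. The log2 fold change was 0.18 ± 0.04, adjusted p = 5.6e-05 at 50 nM and 0.38 ± 0.04, adjusted p = 6.3e-16 at 500 nM. Per kb of reference transcript its level was 1030.5 ± 67.0 in DMSO (SD, n = 3), and the next members were SLC35A2 (463 ± 41.0), SLC35A4 (443 ± 24.1) and NANS (443 ± 11.0), which overlapped each other.

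Neither PAPS synthase passed the test at any dose. PAPSS1 and PAPSS2, the PAPS synthases, had 569.5, 503 and 578 and 467, 454 and 448 in DMSO. At 500 nM the counts were 533, 524 and 526 for PAPSS1 and 445, 464 and 482 for PAPSS2. Their log2 fold changes at 500 nM were -0.06 (95% interval -0.18 to 0.06) and 0.02 (95% interval -0.10 to 0.15), both intervals ending below that of SLC35B2 (0.31 to 0.45). These differences were not tested. SLC35B3, the other PAPS carrier, had 299, 284 and 272 in DMSO and 270.5, 294 and 276 at 500 nM, a log2 fold change of -0.02 (95% interval -0.19 to 0.14).

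SLC35B1 and SLC35B4 also rose, so that 3 of 4 SLC35B genes were higher at 500 nM, against 16.2% of all genes. SLC35B1 (chr17:49700934-49709014), which brings ATP into the ER, had 430.2, 435 and 418 in DMSO, 547, 553 and 582 at 50 nM and 575, 590.4 and 581 at 500 nM. It was 1.31-fold higher at 50 nM (log2 fold change 0.39 ± 0.06, adjusted p = 2.1e-07) and 1.36-fold higher at 500 nM (log2 fold change 0.44 ± 0.06, adjusted p = 1.9e-09). SLC35B4 (chr7:134289332-134316930), a carrier of UDP-xylose and UDP-GlcNAc, had 577, 562 and 559 in DMSO, 610.3, 605 and 581 at 50 nM and 703, 705 and 687 at 500 nM. For both genes these groups lay above DMSO without overlap. For SLC35B4 only the highest dose was called against DMSO (log2 fold change 0.30 ± 0.06, adjusted p = 5.5e-06), and at 50 nM the log2 fold change was 0.08 (95% interval -0.03 to 0.19). UXS1, whose product SLC35B4 transports, was already 1.37-fold higher at 50 nM.

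SLC35D2 had the largest fold change of all 36 members. The protein carries UDP-GlcNAc, and its transcript was scarce. SLC35D2 (chr9:96313444-96383711) had 49.0, 56.0 and 58.3 in DMSO, 62.2, 84.1 and 63.6 at 0.5 nM and 67.5, 61.3 and 66.5 at 5 nM. They were 116, 108 and 95.7 at 50 nM and 102, 111 and 107 at 500 nM. The libraries at 50 and 500 nM overlapped each other and lay above all others, at 1.94-fold (log2 fold change 0.95 ± 0.15, adjusted p = 5.4e-08) and 1.95-fold (log2 fold change 0.96 ± 0.15, adjusted p = 2.1e-08) the DMSO level. The highest library at 0.5 nM, 84.1, was the one with fibroblast transcripts. Another annotated gene covers 46.9% of its exon bases on the same strand, and the counts may hold or lack reads of that gene. SLC35D1 (chr1:66999350-67054148), a carrier of UDP-glucuronate and UDP-GalNAc, had 222, 251 and 216 in DMSO and 286, 275 and 291 at 500 nM, 1.24-fold higher with no overlap (log2 fold change 0.31 ± 0.08, adjusted p = 0.0017).

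The SLC35A and SLC35C carriers had smaller fold changes. SLC35A5 (chr3:112561709-112585579), whose substrate is not settled, had 383, 399 and 399 in DMSO, 475, 429 and 462 at 50 nM and 424, 484 and 476 at 500 nM, and was called at 50 nM (log2 fold change 0.21 ± 0.07, adjusted p = 0.019) and 500 nM (log2 fold change 0.23 ± 0.07, adjusted p = 0.0061). Neither dose overlapped DMSO. The 50 nM call was lost with DESeq2 (0.0503) and without DMSO replicate 1 (0.074), 50 nM replicate 1 (0.115) or 50 nM replicate 3 (0.067). The 500 nM call was lost without 500 nM replicate 2 (0.0542), all values adjusted p. SLC35C1 (chr11:45804072-45813016), the GDP-fucose carrier, was called at 50 nM alone, with 372, 409 and 414 against 353, 322 and 335 in DMSO (log2 fold change 0.24 ± 0.07, adjusted p = 0.0066), and had 350.4, 397 and 373 at 500 nM (log2 fold change 0.15 ± 0.07, adjusted p = 0.105).

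SLC35A2 (chrX:48903180-48911958), the UDP-galactose carrier, was at the threshold. It had 665, 619 and 737 in DMSO and 706, 778 and 743 at 500 nM, groups that overlapped, and a log2 fold change of 0.14 ± 0.06 with adjusted p = 0.0498 (0.112 with DESeq2). Leaving out DMSO replicate 1 or 2, 0.5 nM replicate 1, 5 nM replicate 3, any 50 nM replicate, or 500 nM replicate 2 or 3 raised the adjusted p to 0.0535 to 0.356. It was 0.0792 without a filter on low values and 0.0527 in a fit to the compared groups only. SLC35A1, the CMP-sialic acid carrier, was at 13.1 to 24.4 in all libraries, the lowest of the 36 members, and its log2 fold change at 500 nM was 0.01 (95% interval -0.54 to 0.57), so that a change was not detectable at this depth. Another annotated gene covers 55.5% of SLC35A1 exon bases on the same strand. SLC35A3 (UDP-GlcNAc), SLC35A4 (substrate not settled) and SLC35C2 (tied to fucosylation in the Golgi) were not called either, with log2 fold changes at 500 nM of 0.08 (95% interval -0.10 to 0.26), 0.09 (95% interval 0.00 to 0.18) and -0.06 (95% interval -0.16 to 0.05).

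**Figure D2:**
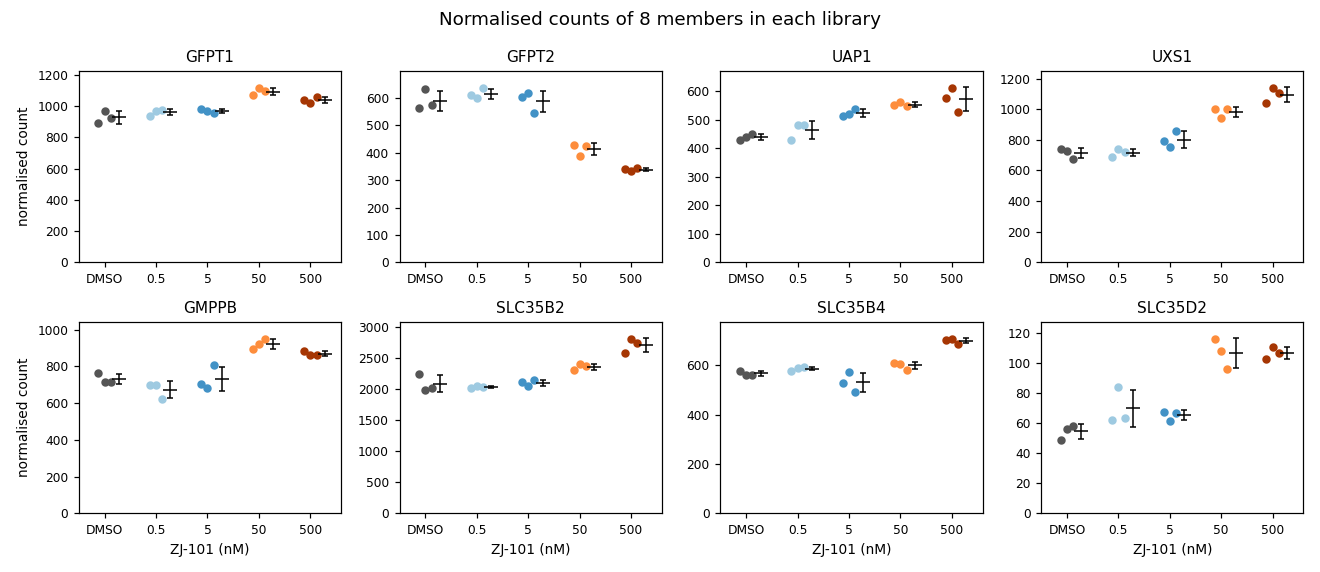
Normalised counts of 8 members in each of the 15 libraries (points, 3 a group), with the mean and SD of each group as a black bar, in DMSO and at 4 doses of ZJ-101 in nM. GFPT2 falls at 50 and 500 nM, SLC35D2 and GMPPB are as high or higher at 50 nM than at 500 nM, and UXS1, SLC35B2 and SLC35B4 are highest at 500 nM.

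Comparing neighbouring doses showed between which doses the changes took place. A step is not a difference from DMSO. SLC35B4 and GALT were among the members with a 5 nM mean below DMSO, without a call. Their means were 530 and 105 at 5 nM, against 566 and 113 in DMSO. From 0.5 to 5 nM, 2 members were higher, UXS1 (log2 fold change 0.16 ± 0.05, adjusted p = 0.035) and GMPPA (log2 fold change 0.22 ± 0.07, adjusted p = 0.032), and 7.06% of all genes were called in either direction. Neither of these calls held with DESeq2 (adjusted p = 0.075 and 0.075) or without a filter on low values (0.0739 and 0.0801). UXS1 was not called in a fit to the compared groups only (0.0507), nor GMPPA without the 3 libraries with fibroblast transcripts (0.131). The UXS1 step was lost without 0.5 nM replicate 1 or 3 or 5 nM replicate 1 or 3 (adjusted p 0.071 to 0.302), and the GMPPA step without 0.5 nM replicate 1 or 2 or 5 nM replicate 1 or 3 (adjusted p 0.0509 to 0.188). From 5 to 50 nM, 12 members changed, 11 upward and GFPT2 downward, against 18.5% of all genes. The largest of these steps, as log2 fold changes, were in SLC35D2 (0.70 ± 0.15, adjusted p = 8.4e-05), GFPT2 (-0.51 ± 0.06, adjusted p = 4.9e-11), GALT (0.45 ± 0.12, adjusted p = 0.003), GMPPB (0.34 ± 0.05, adjusted p = 1.7e-07), PGM3 (0.30 ± 0.06, adjusted p = 6.4e-05) and UXS1 (0.29 ± 0.05, adjusted p = 2.1e-06), and these 6 calls held in all 25 alternatives. The others were GFPT1 (0.17 ± 0.05, adjusted p = 0.003) and SLC35B2 (0.16 ± 0.04, adjusted p = 0.00028), whose calls held too, and NANS, SLC35A2, SLC35B1 and SLC35B4, whose steps were each lost without some single library at 5 or 50 nM. These libraries were 5 nM replicate 1 or 2 or 50 nM replicate 2 or 3 for NANS (adjusted p 0.12 to 0.237), 5 nM replicate 2 or 3 or any at 50 nM for SLC35A2 (adjusted p 0.0557 to 0.25), 5 nM replicate 2 or 50 nM replicate 3 for SLC35B1 (adjusted p 0.061 to 0.084) and 5 nM replicate 3 or 50 nM replicate 1 or 2 for SLC35B4 (adjusted p 0.057 to 0.171).

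From 50 to 500 nM, 4 members changed, against 12.7% of all genes. SLC35B4 (0.22 ± 0.06, adjusted p = 0.0025), SLC35B2 (0.20 ± 0.04, adjusted p = 1.1e-05) and UXS1 (0.16 ± 0.05, adjusted p = 0.024) rose further on the log2 scale, and GFPT2 fell further (-0.28 ± 0.06, adjusted p = 0.00026). The UXS1 step was lost without 50 nM replicate 2 (adjusted p = 0.163), 500 nM replicate 2 (0.166) or 500 nM replicate 3 (0.092), and without a filter on low values (0.0523).

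For GFPT1, PGM3, GMPPB and SLC35D2 the change from 50 to 500 nM was not called, with log2 values of -0.07 (95% interval -0.16 to 0.02), -0.09 (95% interval -0.21 to 0.03), -0.08 (95% interval -0.19 to 0.02) and 0.00 (95% interval -0.28 to 0.29). The mean was highest at 500 nM for 17 members and at 50 nM for 10. A slope per 10-fold dose over the 12 treated libraries was called upward for 16 members and downward for GFPT2, against 14.0% and 13.9% of all genes. Without the 3 libraries with fibroblast transcripts, 12 slopes were upward and 1 downward. The rising slopes no longer called were those of GFPT1, UGDH, NANS and SLC35A5 (adjusted p 0.0618 to 0.141). Single libraries also decided the slopes of GFPT1 (0.0689 without 0.5 nM replicate 1), UGDH (0.0667 without 500 nM replicate 1) and SLC35A5 (0.0529 to 0.186 without 0.5 nM replicate 2 or 3, 5 nM replicate 1 or 2, 50 nM replicate 1 or 3, or 500 nM replicate 2 or 3).

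Synthesis enzymes and SLC35 transporters were then compared as classes. At 500 nM, 12 of 23 enzymes (52.2%) and 7 of 13 transporters (53.8%) were called, against 32.4% of all genes in either direction, with 10 enzymes higher and 2 lower (GFPT2 and GALK1) and 7 transporters higher and none lower. At 50 nM, 9 enzymes (39.1%) and 5 transporters (38.5%) were called, against 20.6% of all genes. The median log2 fold change at 500 nM was 0.17 for enzymes and 0.15 for transporters, and at 50 nM it was 0.15 for both classes. In the single 500 nM libraries the enzyme median minus the transporter median was 0.10, -0.10 and -0.0029, values on both sides of 0, so the difference of 0.02 was smaller than the spread between libraries. Without the 3 libraries with fibroblast transcripts it was -0.03. On leaving out single libraries the difference ran from -0.06 to 0.07. The numbers called at 500 nM then ran from 10 to 13 enzymes and from 5 to 7 transporters.

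Summed per kb of reference transcript, both classes were higher from 50 nM. The enzymes summed to 3903 ± 16.2 normalised counts per kb in DMSO, 4305 ± 19.3 at 50 nM and 4329 ± 21.5 at 500 nM (SD, n = 3). The transporters summed to 2779.5 ± 83.2 in DMSO, 3142 ± 22.8 at 50 nM and 3341 ± 116 at 500 nM, with SLC35B2 the most abundant among them. For both sums the libraries at 50 and 500 nM lay above all DMSO libraries, and no test was run on them. The lowest levels per kb in DMSO were those of SLC35A1 (10.3 ± 3.07), FPGT (13.6 ± 2.22) and SLC35A3 (14.1 ± 0.814), and neighbours in this order overlapped.

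**Figure D3:**
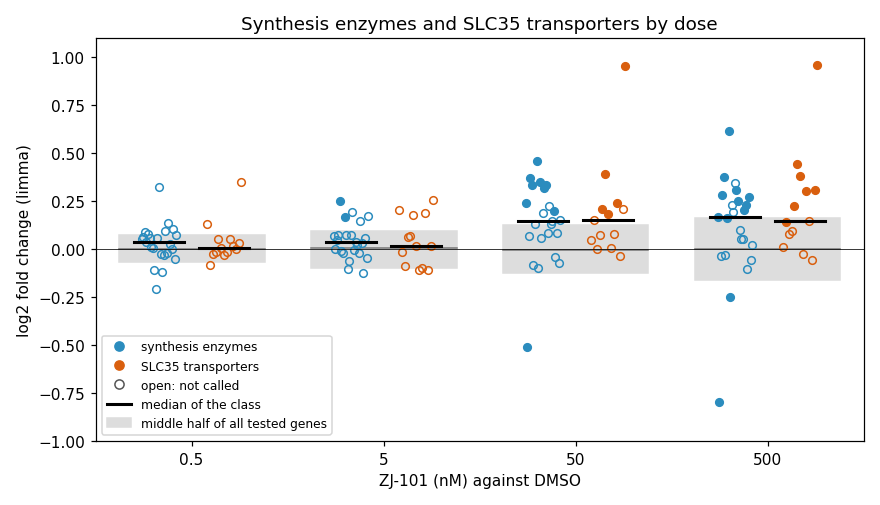
log2 fold change against DMSO of each synthesis enzyme and each SLC35 transporter at 4 doses in nM, filled where called by limma, with class medians as black bars and the interquartile range of all tested genes in grey. Both class medians lie near the upper edge of the grey band at 50 and 500 nM, and the filled points below 0 are enzymes.

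Where a donor, its enzyme and its carrier can be lined up, the 500 nM fold changes stood as follows. For UDP-xylose, UXS1 was 1.53-fold and SLC35B4 1.23-fold higher. For UDP-GlcNAc, UAP1 was 1.30-fold, SLC35D2 1.95-fold and SLC35B4 1.23-fold higher, and SLC35A3 was not called. Earlier in its synthesis GFPT2 was 1.74 times lower, GFPT1 1.12-fold and PGM3 1.22-fold higher, and GNPNAT1 was not called. For UDP-glucuronate, UGDH was 1.12-fold and SLC35D1 1.24-fold higher. For CMP-sialic acid, CMAS was 1.21-fold higher and SLC35A1 was too scarce to judge. For PAPS, SLC35B2 was 1.30-fold higher, and neither the other carrier SLC35B3 nor either synthase was called. For GDP-fucose, neither GMDS, FPGT nor SLC35C1 was called at this dose.

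Paralogs within a library gave a comparison that does not depend on scaling between libraries. The GFPT1/GFPT2 ratio of normalised counts was 1.58, 1.54 and 1.61 in DMSO, 2.50, 2.88 and 2.58 at 50 nM and 3.06, 3.06 and 3.09 at 500 nM. The SLC35B2/SLC35B3 ratio was 7.48, 7.02 and 7.43 in DMSO and 9.52, 9.54 and 9.94 at 500 nM. Between DMSO and 500 nM neither pair's groups overlapped, and the ratios rose 1.95-fold and 1.32-fold. In a two-sided exact permutation test of 3 against 3 libraries each reached p = 0.1, the smallest this design allows (Benjamini-Hochberg adjusted p = 0.25 over 5 pairs). The ratios of PMM1/PMM2, PAPSS1/PAPSS2 and GMPPA/GMPPB overlapped between DMSO and 500 nM (exact permutation p = 0.8, 0.4 and 0.6).

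**Figure D4:**
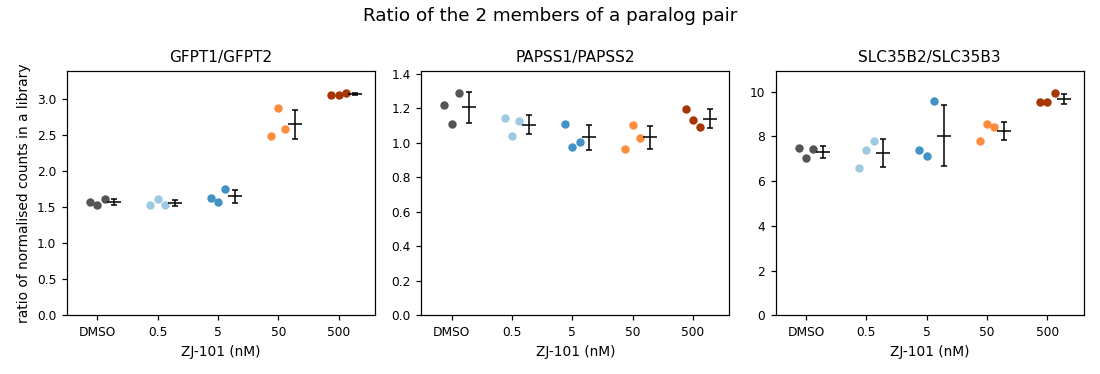
Ratio of normalised counts of the 2 genes of a paralog pair in each library (points), with the mean and SD of each group as a black bar, in DMSO and at 4 doses of ZJ-101 in nM. The GFPT1/GFPT2 ratio leaves the DMSO range at 50 nM and reaches about 3.07 at 500 nM, the SLC35B2/SLC35B3 ratio lies above DMSO at 500 nM, and the PAPSS1/PAPSS2 ratio overlaps DMSO there.

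Genes around the pathway were counted in 3 lists at 500 nM, where 16.2% of all genes were higher and 16.2% lower. Of 19 tested genes of hexose supply, epimerisation, salvage and donor use, 4 were higher, 5 were lower and 10 were not called, shares of 21.1% higher and 26.3% lower that lie near those of all genes (median log2 fold change -0.05). HK1, the hexokinase that feeds glucose 6-phosphate, went from 2631, 2575 and 2516 in DMSO to 2097, 2102 and 1976 (log2 fold change -0.32 ± 0.03, adjusted p = 3.7e-14), and PGM1, which interconverts glucose 1- and 6-phosphate, from 1755, 1639 and 1658 to 1459, 1392 and 1477 (log2 fold change -0.22 ± 0.04, adjusted p = 1.2e-06). At 5 nM HK1 had 2846, 2726 and 2840, above all DMSO libraries. OGT and OGA, which add and remove O-GlcNAc, were both higher, OGA with 1059.6, 1118 and 980.4 in DMSO and 1362, 1404 and 1491 at 500 nM (log2 fold change 0.43 ± 0.04, adjusted p = 1.4e-14) and OGT with 1722, 1864 and 1923 and 2270.5, 2132 and 2108 (log2 fold change 0.24 ± 0.04, adjusted p = 1.3e-07).

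Of the 12 other SLC35 family members tested, 7 were higher at 500 nM (58.3%, against 16.2% of all genes) and none was lower (median 0.20). SLC35F3 went from 74.1, 86.7 and 87.4 in DMSO to 211, 213 and 171 (log2 fold change 1.25 ± 0.12, adjusted p = 4.4e-16), and SLC35G2 from 107, 123 and 110.5 to 171, 193 and 173 (log2 fold change 0.65 ± 0.11, adjusted p = 4.6e-07). The log2 fold changes of SLC35F5 and SLC35F6 at 500 nM were 0.34 ± 0.07 (adjusted p = 9.6e-05) and 0.24 ± 0.07 (adjusted p = 0.0061). The latter genes encode putative transporters of the same family. Of 6 hydrolases that clear spent nucleotides in the ER and Golgi lumen or beside it, 1 was lower (16.7%, the share lower among all genes being 16.2%) and none was higher. This was BPNT2, a Golgi phosphatase of the nucleotide left after sulfation, with 854, 955 and 937 in DMSO and 746, 764 and 706 at 500 nM (log2 fold change -0.31 ± 0.05, adjusted p = 7e-07).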

How the data were processed

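RNA of 15 MDA-MB-231 spheroid libraries in 5 groups was sequenced as poly(A) paired-end reads. The deposited values are a signal that the authors made from gene counts: HISAT2 placed the reads on hg38, htseq-count assigned them to genes, and DESeq2 size factors divided the counts. GENCODE gene models were used, and their release number, the tool versions and the strand setting are not given in the sources used here. All values were whole multiples of 1 read within 0.001 of a read, so whole reads were recovered, which gave the depth of each library. In DMSO replicate 3 the value of 1 read was 1.00446, so near to 1 that whole reads are harder to tell from rounded values, and its reads are less certain. The 4 deposited tables of the study's own comparisons (mean, log2 fold change, SE, Wald statistic, p and adjusted p) were not used, and 0 columns of per-sample values were left out.

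Genes with a mean of at least 10 were tested with limma 3.58.1 (trend, robust, R 4.3.3) on log2(normalised count + 1) in 1 fit of all 5 groups, two-sided, with Benjamini-Hochberg adjustment over all 15233 genes. The contrasts were each dose against DMSO, the steps between neighbouring doses, and a slope in log10 dose. Alternatives were edgeR 4.0.16 and DESeq2 1.42.0 on recovered reads, TMM scaling, a pseudocount of 5, no filter, a mean of at least 50, a fit to the compared groups only, the replicate number as a block, and leaving out each library. Leaving out the 3 libraries with fibroblast transcripts, and edgeR without DMSO replicate 3 for this reason, were added after seeing the data. The fit was tested on simulated data. The members and lists were chosen with earlier results of these data known. All members are described, those called at 50 or 500 nM by each library's values, and of each neighbour list up to 4 called genes with the smallest p at 500 nM. The promoter shown in full was that of the called member with a motif other than the ACGTG core, and the short stretches around that core in 3 hexosamine genes were chosen after their values were seen. Start sites came from RefSeq (GRCh38.p14) and gene models from GENCODE release 44, and reads in exons shared with another gene are uncertain.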

Additional observations from a re-analysis of the deposited data

How the results depend on the processing

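Of 22 results, 18 stayed within their margin under every alternative run. The margin was 1.5 times for counts of called genes, and the spread between libraries for the difference between the classes. For the 5 paralog ratios it was only the same sign, under 1 alternative, a pseudocount of 5. None of the 70 calls of single genes changed direction (51 held under every alternative). The exceptions are the counts at the lowest doses. At 5 nM, 2 members were called, both of them enzymes, and this fell to 1 member and 1 enzyme with no filter, with DESeq2, with the compared groups only and with edgeR without DMSO replicate 3, and ran from 1 to 3 members and 1 to 2 enzymes on leaving out single libraries. No transporter was called at 5 nM (0), against 1 without the 3 libraries with fibroblast transcripts and 0 to 1 on leaving out single libraries. From 0.5 to 5 nM, 2 members were called, against 0 with no filter or DESeq2, 1 with the compared groups only, and 0 to 4 on leaving out single libraries. On leaving out single libraries, 12 to 16 members were called at 50 nM and 16 to 19 at 500 nM, and other alternatives gave 12 to 16 and 17 to 19. The cause of these shifts was not tested. The replicate numbers do not pair the libraries: the correlation of deviations between libraries of the same number ran from -0.12 to 0.176 (median 0.0026), and 4 of 15 libraries were nearest their own number. With the replicate number as a block, 2, 16 and 19 members were called at 5, 50 and 500 nM, and 17 slopes. Members with few reads, such as SLC35A1 and FPGT, limit what the depth can show.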
